A study of Mus musculus with 6 samples.

Results

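Genes of complement component C1q and of the alternative pathway of complement were examined in splenic monocytes of mice with and without the interleukin-4 receptor alpha chain (IL-4Rα). The 7 genes were chosen by name from the 55421 genes counted in each library. They are *C1qa*, *C1qb* and *C1qc*, which encode the chains of C1q, and *C3*, *C3ar1*, *Cfp* and *Cfb*, which encode the central component C3, the receptor for its fragment C3a, properdin and factor B. Both groups were C57BL/6 mice, one carrying the intact receptor gene (IL-4Rα+/+) and the other lacking it in every cell of the body (IL-4Rα-/-). There were 3 mice per genotype and 1 RNA sequencing library per mouse, and the study's animals were 8 to 16 weeks old. The mice received no treatment that the labels name. The monocytes were left untouched in a spleen cell suspension while antibodies removed other leukocytes, so that cells without a target for these antibodies could remain. Since the knockout was not restricted to monocytes, differences in the surrounding tissue belong to the comparison too.

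Complement is a cascade of proteins that marks particles for uptake and recruits leukocytes. The classical pathway starts when C1q binds antibodies or dying cells and activates the proteases C1r and C1s, which cut C4 and C2. The alternative pathway starts from C3 itself. Factor B joins cleaved C3 to form an enzyme that cuts more C3, and properdin holds this enzyme together. Most plasma C3 and factor B come from the liver, whereas C1q is made mainly by macrophages and dendritic cells and properdin by neutrophils and monocytes. The question here was whether the transcripts of these components differed between the genotypes.

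Each library had 26807281 to 29033297 reads counted on genes, and levels are given as CPM, which are counts scaled to a common library total after normalization for library composition. *Il4ra*, the targeted gene, had 137, 128 and 177 CPM in IL-4Rα+/+ replicates 1, 2 and 3, and 27.9, 79.4 and 31.8 CPM in IL-4Rα-/- replicates 1, 2 and 3. The ranges did not overlap, and the library of IL-4Rα-/- replicate 2 held the most of the *Il4ra* reads left in its group. *Csf1r*, the receptor for macrophage colony-stimulating factor that marks monocytes and macrophages, had 2227 to 3095 CPM over the 6 libraries. *Xist*, which is transcribed from the inactive X chromosome of females, stood at 553 CPM in IL-4Rα+/+ replicate 1 and 457 CPM in IL-4Rα-/- replicate 3. It was at most 3.73 CPM in the other 4 libraries, in which the Y-linked gene *Ddx3y* had 113 to 149 CPM. Each genotype therefore held 1 *Xist*-high library.

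Compared with IL-4Rα+/+, the mean levels of the C1q chains and of properdin were higher in the IL-4Rα-/- monocyte preparations, with folds of 1.54 for each C1q chain and 1.52 for *Cfp*. *C3*, *C3ar1* and *Cfb* had overlapping ranges and log2 fold changes of 0.05, 0.22 and -0.11. None of the 7 genes passed the adjusted threshold of 0.15 in edgeR's quasi-likelihood test, which called 0 of 13849 genes tested (0%). An unadjusted p under 0.05 was reached by 1120 genes (8.09%), and DESeq2 called 80 of 14003 genes (0.571%). The edgeR test did not call the targeted gene *Il4ra* either, at an adjusted p of 0.618 and an unadjusted p of 0.0053. The *Il4ra* estimate was -1.67 on the log2 scale, and DESeq2 called this gene at an adjusted p of 0.0111. An edgeR adjusted p above 0.15 therefore does not show that a gene was unchanged. At an unadjusted p under 0.05, 4 of the 7 genes were higher and 0 lower in IL-4Rα-/-, against 3.72% higher and 4.37% lower of all genes tested. DESeq2 and limma-voom likewise put 0 of the 7 past the adjusted threshold and 4 past the unadjusted one. All 7 genes passed the filter on low counts, and 6 of them had a log2 fold change above 0, as did 51.5% of all genes. The median log2 fold change was 0.60 over the 7 genes and 0.01 over all genes. The C1q chains are not independent observations, since the Pearson correlations between their log2 CPM were 0.988 to 0.995 over the 6 libraries. The count of 4 of 7 and the median therefore cannot be read as an enrichment, which was not tested. Nothing in the labels says that replicates with the same number shared a cage or litter, and p-values measure the spread between these mice.

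Levels of different genes were compared per length of transcript, as TPM, which are counts divided by the merged exon length of the gene and scaled to a common total. In the IL-4Rα+/+ libraries *C1qb* had 855 ± 49.8 TPM (SD, n = 3) and *C1qa* 841 ± 74.6 TPM (SD, n = 3). These means were followed by *C3* with 578 ± 199.9 TPM (SD, n = 3), *Cfp* with 490.1 ± 68.4 TPM (SD, n = 3) and *C1qc* with 427 ± 35.7 TPM (SD, n = 3). *C1qa* and *C1qb* did not differ beyond their spread, nor, with this length, did *C3*, *Cfp* and *C1qc*. The 5 abundant genes lay in the top percentiles of the genes tested, from 97.9 for *C1qc* to 99.3 for *C1qa* and *C1qb*. *C3ar1* was far lower, with 1.65 ± 0.694 TPM (SD, n = 3) at percentile 15.3. *Cfb* had 2.75 ± 1.28 TPM (SD, n = 3) over all its exons, a value that is too low because most of these bases are shared with another gene and their reads were not counted. Over the unshared bases it had 13.4 ± 6.26 TPM (SD, n = 3), above *C3ar1* beyond the spread and still far below the abundant genes. In the IL-4Rα-/- group *C1qb* had 1290.3 ± 317 TPM (SD, n = 3), *C1qa* 1264 ± 333 TPM, *Cfp* 724 ± 161 TPM, *C1qc* 643 ± 173 TPM and *C3* 584 ± 182 TPM (SD, n = 3 each). The order of the 5 abundant genes varied from library to library, whereas *C3ar1* and *Cfb* were the lowest pair in all 6. The position of *C1qc* depended on the transcript model, since its merged exons are longer than its longest single transcript. With the longest single transcript of each gene, the IL-4Rα+/+ means were 645 TPM for *C1qa*, 656 TPM for *C1qb* and 525 ± 42.8 TPM (SD, n = 3) for *C1qc*. On this scale *C1qc* lay above *C3* (444 ± 154 TPM) and *Cfp* (399 ± 56.1 TPM, SD, n = 3 each), beyond the spread for *Cfp* and within it for *C3*.

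**Figure D1:**
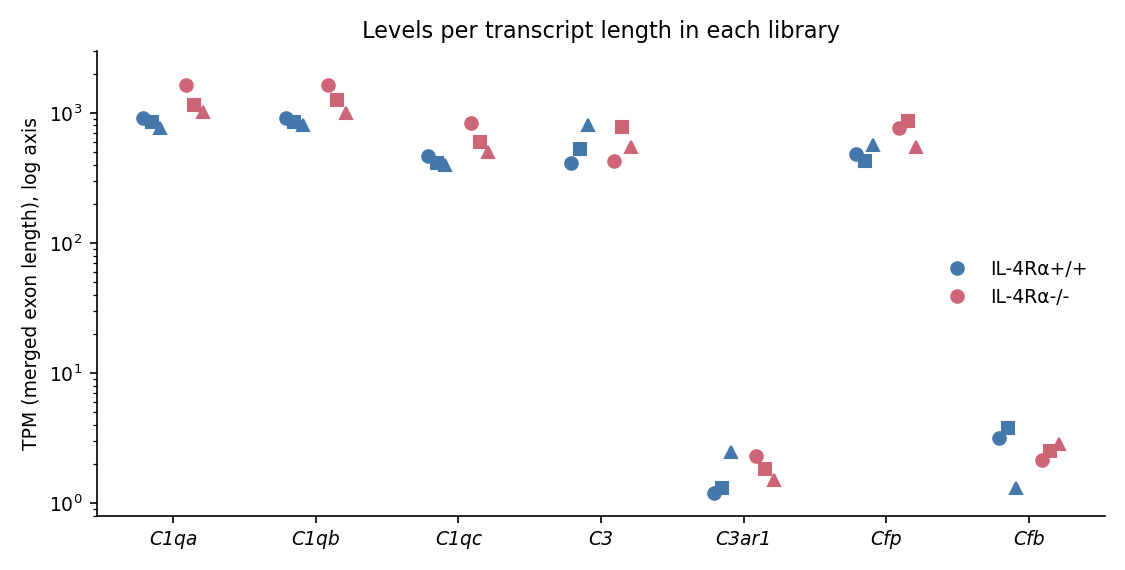
Levels per length (TPM over merged exon length, logarithmic axis) of the 7 genes in each library, with IL-4Rα+/+ in blue, IL-4Rα-/- in red and circles, squares and triangles for replicates 1, 2 and 3. The C1q chains, *C3* and *Cfp* lie between 398 and 1640.4 TPM, and *C3ar1* and *Cfb* between 1.20 and 3.76 TPM, where the values of *Cfb* over all exons are too low.

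The C1q molecule is built from equal numbers of the A, B and C chains, and the 3 genes form a cluster on the minus strand of mouse chromosome 4. In GRCm38, *C1qa* (ENSMUSG00000036887) lies at chr4:136895917-136898803, *C1qc* (ENSMUSG00000036896) at chr4:136889804-136893065 and *C1qb* (ENSMUSG00000036905) at chr4:136880129-136886187. The cluster spans 18675 bp, and each gene has 3 exons, none of which shares a base with another annotated gene. The bases before the starts of *C1qb* and *C1qc* are shown because these neighbouring genes moved together over the libraries. That of *C1qb* ends at its RefSeq start and that of *C1qc* at its outermost Gencode start. They were read from a set of RefSeq promoter windows for GRCm38.p6, which was available here for 5 of the 7 genes, and are written 5′ to 3′ on the strand of the gene. Capitals mark GAGGAA, a letter string that PU.1, the transcription factor of the myeloid lineage, can bind, or its reverse complement.
*C1qb*, chr4:136886201-136886450, minus strand: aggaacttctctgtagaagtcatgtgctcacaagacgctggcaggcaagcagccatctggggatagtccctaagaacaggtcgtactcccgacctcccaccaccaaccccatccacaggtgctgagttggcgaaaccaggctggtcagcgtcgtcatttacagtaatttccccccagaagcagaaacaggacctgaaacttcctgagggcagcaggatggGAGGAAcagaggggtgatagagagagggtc
*C1qc*, chr4:136893066-136893164, minus strand: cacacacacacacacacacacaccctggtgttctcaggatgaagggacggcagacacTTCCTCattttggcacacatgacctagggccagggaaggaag
The match in *C1qb* lay at bases -30 to -25 from the RefSeq start on the strand of the gene, and that in *C1qc* at -193 to -188 on the opposite strand. In windows of 250 bases before to 50 bases after the start, searched on both strands, GAGGAA was present in *C1qb*, *C1qc* and *Cfp* and in 28.1% of all 32544 windows. TGCTGAC (4.65% of windows), TTC and GAA with 4 bases between them (6.98%) and GAAA and GAAA with 2 bases between them (3.45%) were in none of the 5 windows, so that no matches of different strings overlapped. A match is a string of letters and not a measured binding site.

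*C1qa* had 277, 257 and 235 CPM in IL-4Rα+/+ replicates 1, 2 and 3 and 507, 371 and 305 CPM in IL-4Rα-/- replicates 1, 2 and 3. *C1qb* had 289, 268 and 261 CPM in IL-4Rα+/+ and 526, 424 and 315 CPM in IL-4Rα-/- replicates, in the same order. *C1qc* had 264, 232 and 228 CPM in IL-4Rα+/+ and 478, 359.8 and 279 CPM in IL-4Rα-/- replicates. For each chain, all 3 IL-4Rα-/- libraries were above all 3 IL-4Rα+/+ libraries, replicate 1 was the highest of its genotype, and the IL-4Rα-/- libraries were spread more widely. The margin between the groups was small, since the lowest IL-4Rα-/- library was 1.10 times the highest IL-4Rα+/+ library for *C1qa*, 1.09 times for *C1qb* and 1.06 times for *C1qc*. The counts behind these values were 6052 to 14720 per gene and library, so that counting error was small beside the spread between mice. Of all genes tested, 7.63% had non-overlapping ranges that were higher in IL-4Rα-/- and 7.87% lower.

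In edgeR, the log2 fold change of *C1qa* was 0.62 (SE 0.19, 95% interval 0.17 to 1.06), with an unadjusted p of 0.0136 and an adjusted p of 0.618. For *C1qb* it was 0.63 (SE 0.18, 95% interval 0.20 to 1.06), with an unadjusted p of 0.0111 and an adjusted p of 0.618. For *C1qc* it was 0.62 (SE 0.19, 95% interval 0.16 to 1.08), with an unadjusted p of 0.0152 and an adjusted p of 0.618. The adjusted p of DESeq2 was 0.220 for *C1qa*, 0.188 for *C1qb* and 0.235 for *C1qc*, also above 0.15. A two-sided exact permutation test gave p = 0.1 for each chain, the smallest value that 3 mice against 3 allow. Without IL-4Rα-/- replicate 1, the library with the most C1q, the log2 fold changes were 0.39, 0.43 and 0.40 for *C1qa*, *C1qb* and *C1qc*. Among the 4 *Xist*-low libraries they were 0.83, 0.84 and 0.86, and in the *Xist*-high pair the IL-4Rα-/- library was higher for each chain.

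The 3 chains kept nearly the same proportions in every library. *C1qa* made up 32.1% to 34.0% of their summed CPM, *C1qb* 34.8% to 36.7% and *C1qc* 30.6% to 31.8%. The Pearson correlation of their log2 CPM over the 6 libraries was 0.988 to 0.995, for points that share library, depth and normalization. Summed over the chains, C1q stood at 830, 757 and 725 CPM in IL-4Rα+/+ replicates 1, 2 and 3 and at 1511, 1154 and 899 CPM in IL-4Rα-/- replicates 1, 2 and 3. The group means were 771 ± 54.1 CPM (SD, n = 3) and 1188 ± 307 CPM (SD, n = 3). The protein-coding genes nearest to the cluster on either side, *Ephb2* and *Epha8*, had too few counts to show whether they shared this pattern. *Ephb2* had 1 to 6 counts and *Epha8* 0 or 1 count per library. *Zbtb40*, a zinc finger gene further away, had 715 to 946 counts and a log2 fold change of -0.15 (edgeR, unadjusted p = 0.245).

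**Figure D2:**
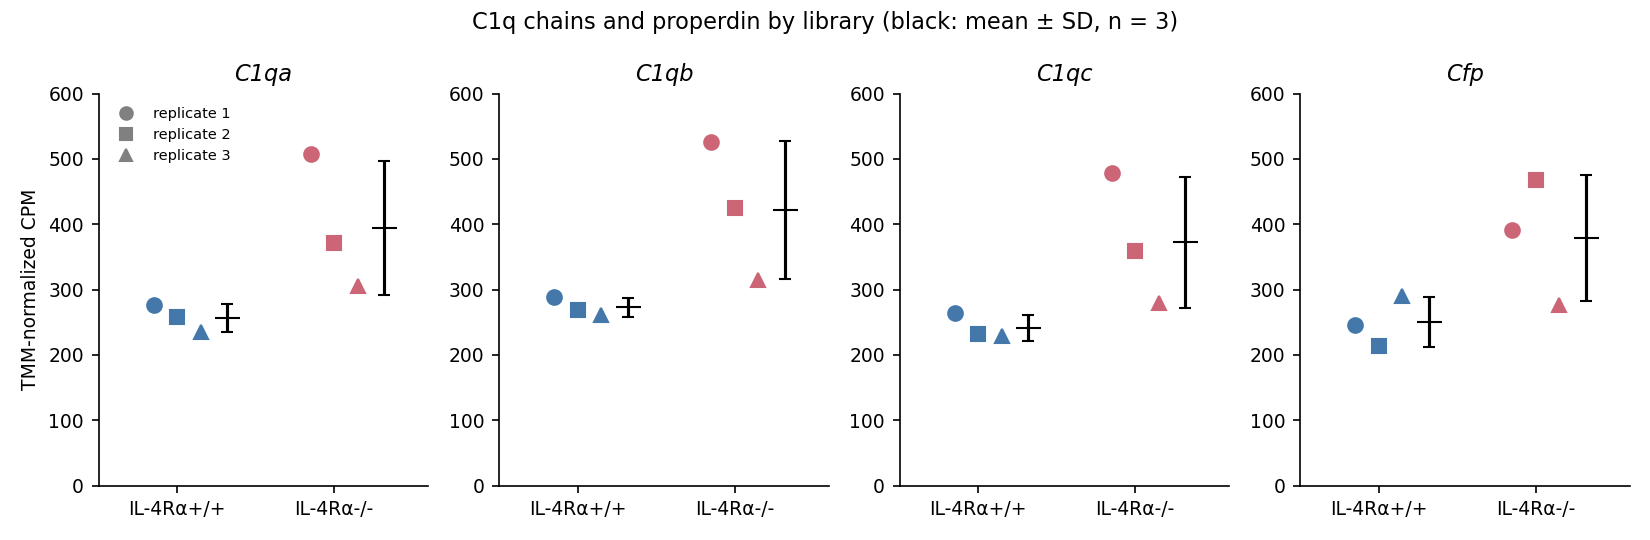
TMM-normalized CPM of *C1qa*, *C1qb*, *C1qc* and *Cfp* by genotype, with 1 symbol per library (circle, square and triangle for replicates 1, 2 and 3) and the mean ± SD of 3 libraries in black. All IL-4Rα-/- libraries lie above all IL-4Rα+/+ libraries for the C1q chains, whereas for *Cfp* IL-4Rα-/- replicate 3 (277 CPM) lies below IL-4Rα+/+ replicate 3 (289.9 CPM).

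C1q is abundant in macrophages, and their markers moved with it. Of 18 markers of red pulp and other splenic macrophages, none of which was at 0 in any library, 15 had a higher estimate in IL-4Rα-/- and 5 were higher at an unadjusted p under 0.05, with 0 lower and 0 past the adjusted threshold. Their median log2 fold change was 0.51. Among all genes tested, 51.5% had a higher estimate, and 3.72% were higher and 4.37% lower at that p. The 3 most abundant of the 18 markers were *Hmox1*, *Vcam1* and *Slc40a1*, the heme oxygenase, adhesion molecule and iron exporter of red pulp macrophages. *Hmox1* had 1042, 801 and 804 CPM in IL-4Rα+/+ replicates 1, 2 and 3 and 1520, 1010 and 1330 CPM in IL-4Rα-/- replicates 1, 2 and 3. *Vcam1* had 634.2, 556 and 572 CPM and 1353, 1013 and 634.0 CPM in the same order, and both genes overlapped between the groups. *Slc40a1* had 551, 531 and 453 CPM and 1143, 636 and 679 CPM. The groups did not overlap for 4 of the 18 markers, all higher in IL-4Rα-/-, against 7.63% of all genes tested. *Siglec1*, *Treml4* and *Folr2* had lower estimates, with log2 fold changes of -0.32, -0.25 and -0.05. *Spic*, the transcription factor that defines red pulp macrophages, had 90.9 to 103 CPM in IL-4Rα+/+ and 106 to 165 CPM in IL-4Rα-/-. The summed CPM of the 18 markers was 4524, 4019 and 3728 in IL-4Rα+/+ and 7467, 5055 and 4770 in IL-4Rα-/- replicates 1, 2 and 3. C1q amounted to 18.4%, 18.8% and 19.4% of this sum in IL-4Rα+/+ and to 20.2%, 22.8% and 18.9% in IL-4Rα-/-, with group means of 18.9% ± 0.546 and 20.6% ± 2.02 (SD, n = 3 each). The ratio of these means was 1.09, against 1.54 for C1q and 1.41 for the marker sum. Monocytes also express some of these markers, and the part of macrophages in the C1q values was not tested. In bulk samples, more cells of a type and more RNA per cell cannot be told apart.

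The genes whose log2 CPM followed the mean of the C1q chains most closely over the 6 libraries were *Pfdn5* (r = 0.995), *Vstm4* (r = 0.992), *Vcam1*, *Eef1b2* and *Rpl36a* (r = 0.986 each), among 9811 genes of at least 5 CPM. *Vcam1* was the 1 macrophage marker among them. *Pfdn5* encodes a subunit of the chaperone prefoldin, *Eef1b2* a translation elongation factor and *Rpl36a* a ribosomal protein. Their differences were small beside that of C1q, with log2 fold changes of 0.15 for *Pfdn5*, 0.09 for *Eef1b2* and 0.12 for *Rpl36a*. *Vstm4*, an immunoglobulin domain protein of the cell surface, and *Vcam1* had log2 fold changes of 0.74 and 0.77.

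*Cfp* (ENSMUSG00000001128) encodes properdin, a positive regulator of the alternative pathway, and lies on the minus strand of the X chromosome at chrX:20925454-20931555 with 9 exons. It had 245, 214 and 289.9 CPM in IL-4Rα+/+ replicates 1, 2 and 3 and 391, 468 and 277 CPM in IL-4Rα-/- replicates 1, 2 and 3. The groups overlapped, since IL-4Rα-/- replicate 3 was below IL-4Rα+/+ replicate 3. The means were 249.8 ± 38.1 CPM (SD, n = 3) and 379 ± 96.1 CPM (SD, n = 3), and the log2 fold change was 0.60 (SE 0.21, 95% interval 0.11 to 1.09). The unadjusted p of edgeR was 0.0240 and the adjusted p 0.618, while DESeq2 gave an adjusted p of 0.337. The two-sided exact permutation p was 0.2. Since *Cfp* is X-linked, the libraries were also compared by their *Xist* level. The *Xist*-high libraries had 245 CPM in IL-4Rα+/+ and 277 CPM in IL-4Rα-/-, and in the *Xist*-low libraries the IL-4Rα+/+ values of 214 and 289.9 CPM lay below the IL-4Rα-/- values of 391 and 468 CPM. With *Xist* as a covariate the log2 fold change was 0.52.

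The library with the most *Cfp*, IL-4Rα-/- replicate 2, also had the highest summed CPM of neutrophil markers. Of 13 neutrophil markers 11 were tested, of which 10 had a higher estimate in IL-4Rα-/- and 5 were higher at an unadjusted p under 0.05, with a median log2 fold change of 1.88. By the adjusted threshold edgeR called 0 of them and DESeq2 called 1 (*Camp*, adjusted p = 0.123). Among all genes tested, 51.5% had a higher estimate and 3.72% were higher at that unadjusted p, and DESeq2 called 0.571% of its genes. *Retnlg* was the 1 neutrophil marker with a lower estimate, at a log2 fold change of -0.31. That of *Csf3r*, the most abundant of the list, was 0.01. None of the 13 was at 0 in all libraries, but *Ly6g*, the surface protein that defines mouse neutrophils, had 0 to 9 counts per library. *S100a9*, a calcium-binding protein of neutrophil cytosol, had 9.84, 4.92 and 16.5 CPM in IL-4Rα+/+ and 36.3, 75.5 and 13.1 CPM in IL-4Rα-/- replicates 1, 2 and 3. It was among the 3 genes most like *Cfp* over the 6 libraries (r = 0.995), with *Nt5m* (r = 0.996), a mitochondrial nucleotidase, and *Cdc37* (r = 0.992), a co-chaperone of Hsp90. The summed CPM of the neutrophil list ranged from 364 to 696 in IL-4Rα+/+ and from 467 to 1113 in IL-4Rα-/-. Its most abundant genes were *Csf3r*, the receptor for granulocyte colony-stimulating factor, *Mmp8*, a collagenase, and *S100a8*, the partner of *S100a9*. Monocytes also express genes of this list, so that it does not measure neutrophils alone. IL-4Rα-/- replicate 2 also had the highest sum of the Ly6C high monocyte markers described below (17207 CPM). The part of neutrophils in the *Cfp* values was not tested. Without IL-4Rα-/- replicate 2 the log2 fold change of *Cfp* was 0.42, with an unadjusted p of 0.0697.

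*C3* (ENSMUSG00000024164), the component on which all pathways converge, lies on the minus strand at chr17:57203970-57228136 with 42 exons (overlapping exons merged). It had 619, 779.6 and 1222 CPM in IL-4Rα+/+ replicates 1, 2 and 3 and 651, 1255 and 812 CPM in IL-4Rα-/- replicates 1, 2 and 3. The groups overlapped throughout, and the mice of each genotype were spread widely. The means were 873 ± 312 CPM (SD, n = 3) and 906 ± 313 CPM (SD, n = 3). The log2 fold change was 0.05 (SE 0.32, 95% interval -0.71 to 0.82), with an unadjusted p of 0.874, an adjusted p of 0.964 and an exact permutation p of 0.7. With this spread between 3 mice per genotype, a difference of either sign within this interval was not excluded. The sign depended on single mice. It turned negative without IL-4Rα+/+ replicate 1 (-0.14), IL-4Rα+/+ replicate 2 (-0.02) or IL-4Rα-/- replicate 2 (-0.26), and reached 0.37 without IL-4Rα+/+ replicate 3.

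The *C3* level went with the markers of Ly6C high monocytes, the subset that leaves the blood for inflamed tissue. The summed CPM of 10 such markers was 6758, 9613 and 15703 in IL-4Rα+/+ and 9189, 17207 and 9633 in IL-4Rα-/- replicates 1, 2 and 3, so that the same library was highest within each genotype for both. The 12 markers of Ly6C low monocytes, the patrolling subset, ran the other way, with summed CPM of 11588, 9124 and 5422 in IL-4Rα+/+ and 8001, 3890 and 7537 in IL-4Rα-/-. The Pearson correlation of *C3* with the mean log2 CPM of the lists was 0.939 for Ly6C high and -0.955 for Ly6C low markers over the 6 libraries, which share depth and normalization with both. The most abundant markers of the first list were *Csf1r*, *Fn1* and *Plac8* and of the second *Itgal*, *Ace* and *Nr4a1*. *Csf1r* is expressed by both subsets, and it was lowest in IL-4Rα-/- replicate 2, in which the sum of the Ly6C high list was highest. Of the Ly6C high list 9 genes had a higher estimate and of the Ly6C low list all 12 had a lower estimate in IL-4Rα-/-, and 0 of either passed an unadjusted p of 0.05. Among all genes tested, 51.5% had a higher estimate and 8.09% an unadjusted p under 0.05. The genes most like *C3* were *Ttc39c* (r = 0.997), *Ssbp4* (r = 0.996) and *2310022B05Rik* (r = 0.995). Whether the subsets' shares set the *C3* level was not tested.

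**Figure D3:**
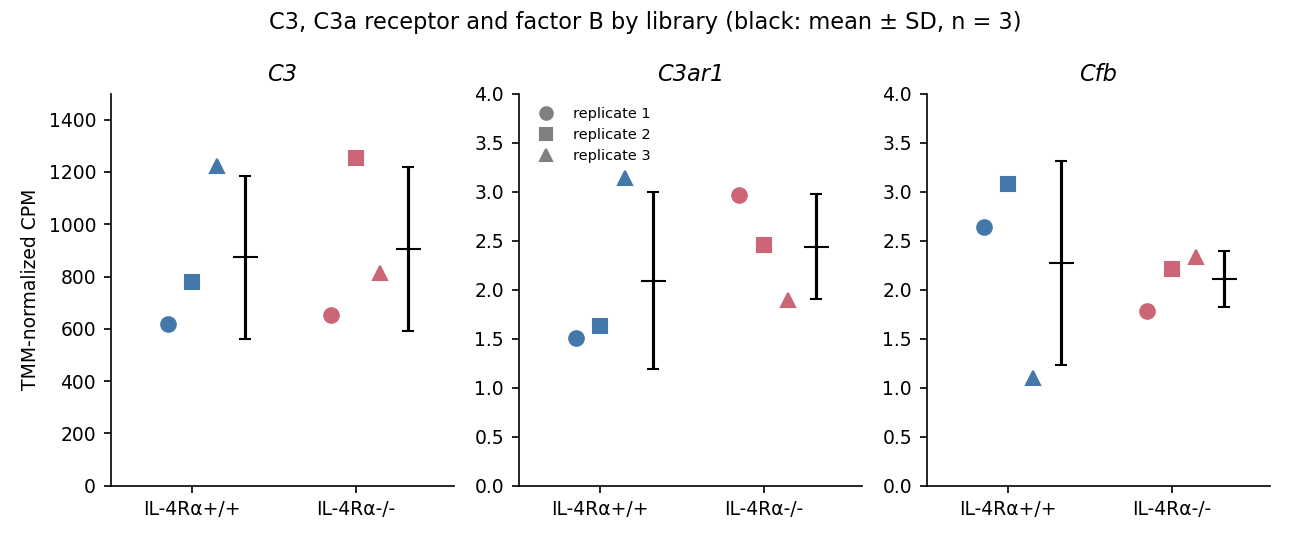
TMM-normalized CPM of *C3*, *C3ar1* and *Cfb* by genotype, drawn as for the C1q chains, with a separate linear axis from 0 for *C3*. The groups overlap for each gene, and *C3ar1* and *Cfb* stay below 3.2 CPM in all libraries.

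*C3ar1* (ENSMUSG00000040552), the receptor through which C3a acts on leukocytes, lies on the minus strand at chr6:122847138-122856161 with 2 exons. It had 1.51, 1.63 and 3.13 CPM in IL-4Rα+/+ and 2.96, 2.45 and 1.89 CPM in IL-4Rα-/- replicates 1, 2 and 3, from 43 to 83 counts. IL-4Rα+/+ replicate 3 was the highest of all libraries, and the groups overlapped. The means were 2.09 ± 0.905 CPM and 2.44 ± 0.535 CPM (SD, n = 3 each), and the log2 fold change was 0.22 (SE 0.36, 95% interval -0.63 to 1.08), with an unadjusted p of 0.557 and an adjusted p of 0.845 in edgeR. It was 0.63 without IL-4Rα+/+ replicate 3, and 0.03, 0.07 and 0.05 without IL-4Rα+/+ replicate 1, IL-4Rα+/+ replicate 2 or IL-4Rα-/- replicate 1. The genes most like it were *Eif4e3* (r = 0.982), *Acvr1* (r = 0.978) and *Pex5* (r = 0.977).

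*Cfb* (ENSMUSG00000090231), the factor that supplies the active enzyme of the alternative pathway, lies on the minus strand at chr17:34856374-34862518. Of its 2825 exon bases, 2246 (79.5%) are also exons of *Gm20547*, a readthrough gene annotated across *Cfb* and *C2* on the same strand. A read in these shared bases belongs to more than 1 gene and was not assigned, and *Gm20547* itself had 0 counts in all 6 libraries. The *Cfb* counts therefore cover about 579 bases that no other gene shares, and its level over all exons is too low in every library. Over these bases alone, *Cfb* had 13.4 ± 6.26 TPM in IL-4Rα+/+ and 12.2 ± 1.74 TPM in IL-4Rα-/- (SD, n = 3 each), in place of 2.75 and 2.49 TPM over all its exons. *C2* shares 42.8% of its exon bases with the same readthrough gene and is affected in the same way.

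The CPM of *Cfb* was 2.64, 3.08 and 1.09 in IL-4Rα+/+ and 1.79, 2.21 and 2.33 in IL-4Rα-/- replicates 1, 2 and 3, from 29 to 85 counts. IL-4Rα+/+ libraries were both the highest and the lowest, and the IL-4Rα-/- libraries lay between them. The log2 fold change was -0.11 (SE 0.40, 95% interval -1.05 to 0.84), with an unadjusted p of 0.797 and an adjusted p of 0.940 in edgeR. It ranged from -0.43 without IL-4Rα+/+ replicate 3 to 0.17 without IL-4Rα+/+ replicate 2. *Cfb* and *C3ar1* varied in opposite directions over the libraries (r = -0.873, 6 libraries, at low counts). The genes most like *Cfb* were *Zfp995* (r = 0.942), *Vamp2* (r = 0.938) and *Samd10* (r = 0.938).

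**Figure D4:**
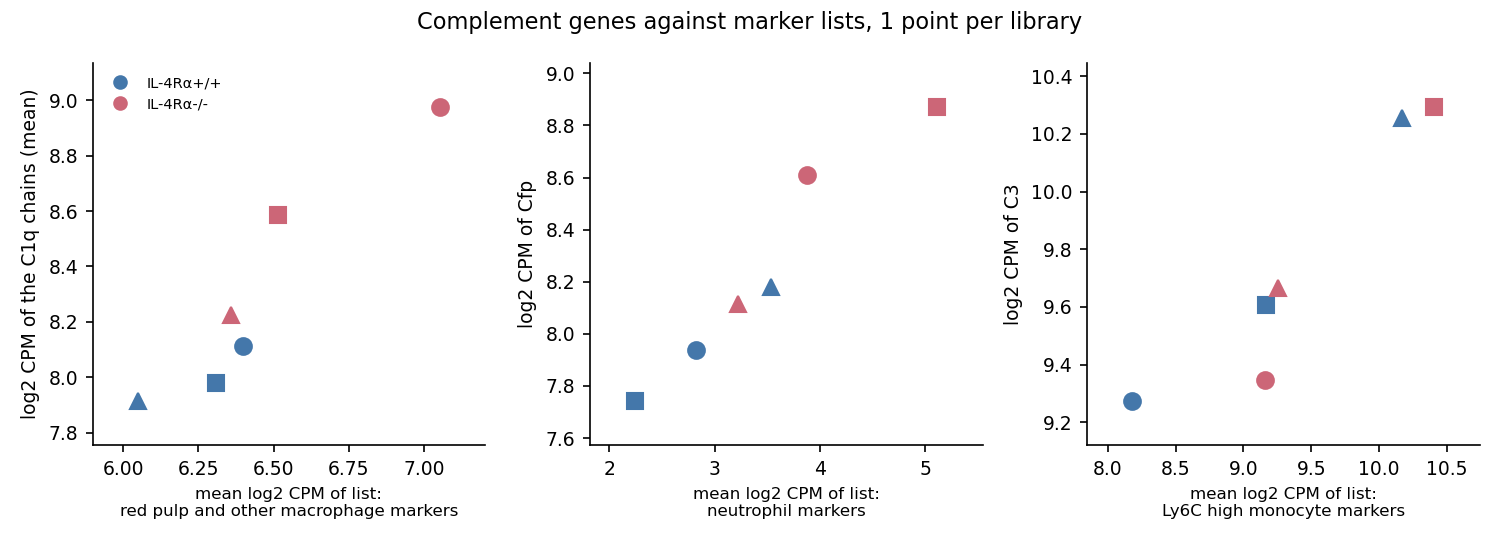
Log2 CPM of the C1q chains (mean of 3), *Cfp* and *C3* against the mean log2 CPM of macrophage, neutrophil and Ly6C high monocyte markers, with 1 point per library, IL-4Rα+/+ in blue, IL-4Rα-/- in red and circles, squares and triangles for replicates 1, 2 and 3. The correlations over the 6 libraries are 0.942, 0.970 and 0.939, and axes do not start at 0. Each list shown is the 1 of 11 marker lists with the highest positive correlation. The next highest were 0.733 for C1q (eosinophil, basophil and mast cell markers), 0.701 for *Cfp* (pancreatic acinar enzymes) and 0.585 for *C3* (neutrophil markers). The most negative were -0.386 for C1q and -0.845 for *Cfp* (stromal and endothelial markers each). For *C3* it was -0.955 (Ly6C low monocyte markers), larger in size than that of the list shown.

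Another 52 genes of the complement system were listed by role, of which 28 had enough counts for a test. Of these 28, 0 passed the adjusted threshold in edgeR or DESeq2, 4 were higher and 2 lower at an unadjusted p under 0.05, and 18 had a higher estimate. Of all genes tested, 3.72% were higher and 4.37% lower at that p, and 51.5% had a log2 fold change above 0. The median log2 fold change of the 28 was 0.13. The remaining 24 were not tested, of which 18 had at most 3 counts in every library and 9 were at 0 throughout. Those not seen above 3 counts included the mannose-binding lectins *Mbl1* and *Mbl2*, the protease *Masp1*, factor D (*Cfd*), factor I (*Cfi*), the terminal components *C7*, *C8b* and *C9*, and *Cpn2* and *Cpb2*, which serve to inactivate the anaphylatoxins. *Cfd*, whose protease cuts factor B, and *Cfi*, whose protease inactivates cleaved C3, were thus not detected in the same libraries that held *C3* and *Cfp* at high levels.

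Of the 16 genes at the start of the classical and lectin pathways 8 were tested, and 7 of them had a higher estimate in IL-4Rα-/-. *Fcna*, which encodes the lectin ficolin A of macrophages, had 261, 198 and 185 CPM in IL-4Rα+/+ and 461, 316 and 275 CPM in IL-4Rα-/- replicates 1, 2 and 3. Its groups did not overlap, as for the C1q chains, and its log2 fold change was 0.71 (SE 0.22, unadjusted p = 0.0164, adjusted p = 0.618). Without IL-4Rα-/- replicate 1 it was 0.46. *C4b* and *Fcnb*, a C4 gene and ficolin B, had 11.2 and 5.63 CPM on average and log2 fold changes of 0.63 and 0.87, with intervals that crossed 0. *C1s1*, the protease that C1q activates, had 0.955 CPM on average and was lower in IL-4Rα-/- without overlap of the groups, with a log2 fold change of -1.02 (SE 0.40, unadjusted p = 0.0391, adjusted p = 0.618). It was -0.63 without IL-4Rα+/+ replicate 3, and 18.4% of its exon bases lie opposite an antisense gene, so that its reads are uncertain.

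In the terminal pathway 2 of 7 genes were tested. *C6*, a part of the membrane attack complex, had 35.3, 35.1 and 41.8 CPM in IL-4Rα+/+ and 83.3, 63.2 and 37.9 CPM in IL-4Rα-/- replicates 1, 2 and 3. Its groups overlapped, and its log2 fold change was 0.72 (SE 0.27, unadjusted p = 0.0336, adjusted p = 0.618), or 0.43 without IL-4Rα-/- replicate 1. *C8g*, another terminal component, had 0.537 CPM on average, and its log2 fold change was -0.01.

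Of 12 genes for receptors of complement proteins 11 were tested, with 7 estimates above 0. *Lrp1*, the scavenger receptor that takes up C1q-coated cells together with calreticulin, was the most abundant. It had 1867, 2112 and 2250 CPM in IL-4Rα+/+ and 1624, 1709 and 1487 CPM in IL-4Rα-/- replicates 1, 2 and 3. The groups did not overlap, and the log2 fold change was -0.37 (SE 0.10, unadjusted p = 0.0084, adjusted p = 0.618). After removal of the trend of counts with transcript length, it was -0.20 with an unadjusted p of 0.113. *C1qbp*, a mitochondrial protein that also binds C1q, had 34.8 to 35.7 CPM in IL-4Rα+/+ and 39.5 to 41.1 CPM in IL-4Rα-/-, and its log2 fold change was 0.19 (SE 0.06, unadjusted p = 0.0227, adjusted p = 0.618). For *C1qbp* the unadjusted p was above 0.05 in 8 of 16 alternatives, among them DESeq2 (0.0523) and removal of the length trend (0.0702, log2 fold change 0.13). The integrin chain *Itgb2*, shared by complement receptors 3 and 4, and calreticulin (*Calr*) had log2 fold changes of -0.13 and 0.15, with overlapping groups.

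Of 14 genes for regulators 6 were tested, with 2 estimates above 0. *Cd55*, the decay-accelerating factor that dissolves C3-cutting enzymes on the cell surface, had 3.27, 6.66 and 3.02 CPM in IL-4Rα+/+ and 10.3, 6.38 and 10.5 CPM in IL-4Rα-/- replicates 1, 2 and 3. The groups overlapped, and the log2 fold change was 1.07 (SE 0.36, unadjusted p = 0.0237, adjusted p = 0.618). *Cr1l*, the mouse regulator also known as Crry, was the most abundant with 99.5 ± 5.77 CPM in IL-4Rα+/+ and 97.2 ± 2.31 CPM in IL-4Rα-/- (SD, n = 3 each). Its log2 fold change of -0.03 had a 95% interval of -0.21 to 0.14. *Clu*, which encodes the fluid-phase inhibitor clusterin, had 13.2 ± 4.99 CPM in IL-4Rα+/+ and 10.9 ± 3.96 CPM in IL-4Rα-/- (SD, n = 3 each) and a log2 fold change of -0.28 (unadjusted p = 0.470).

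**Figure D5:**
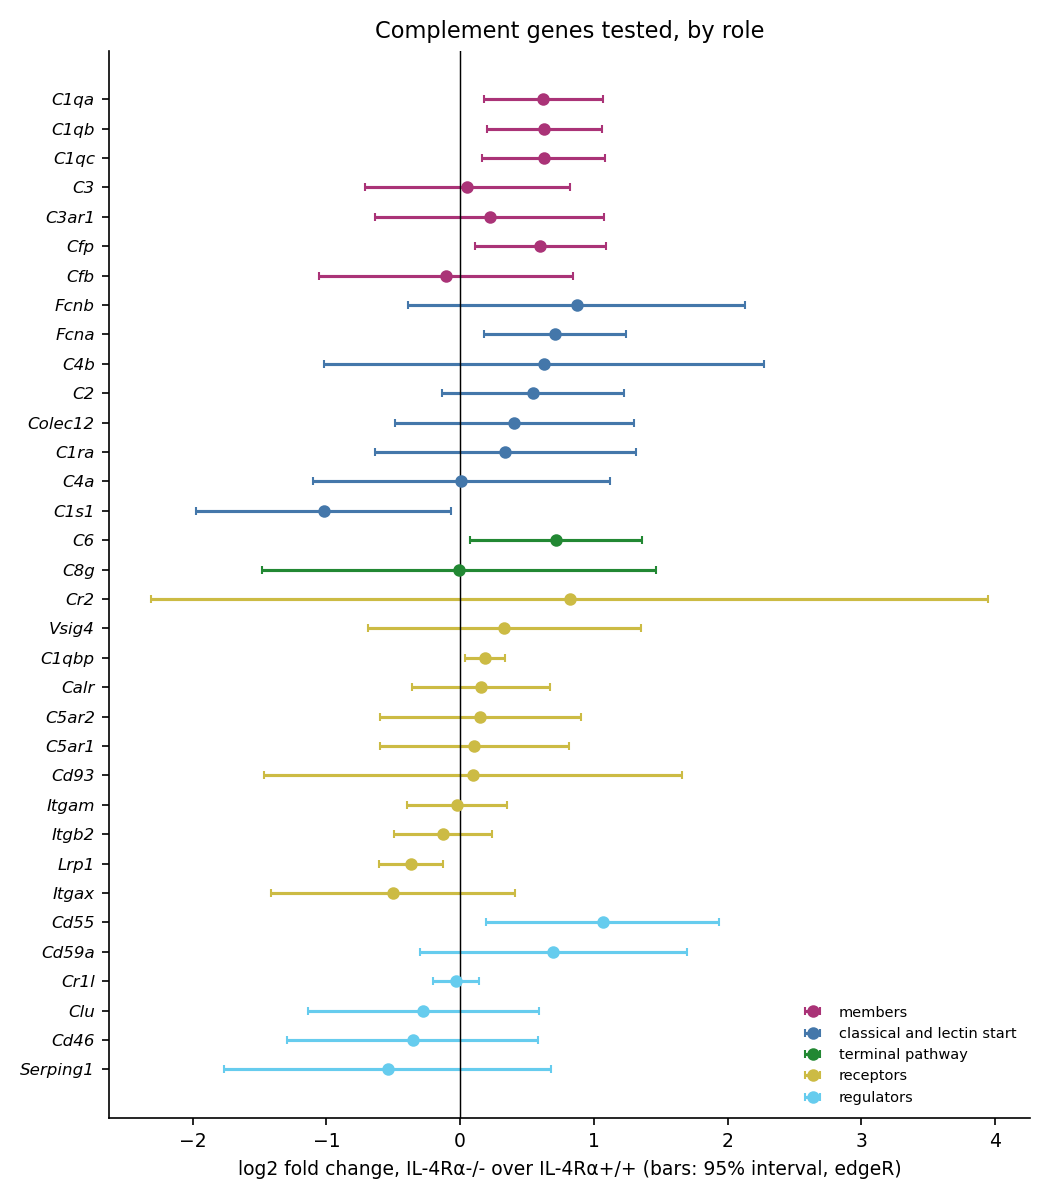
Log2 fold changes (IL-4Rα-/- over IL-4Rα+/+) with 95% intervals from edgeR for the 7 genes and the other complement genes tested of the classical and lectin, terminal, receptor and regulator lists, coloured by role. The intervals of *C1qa*, *C1qb*, *C1qc*, *Cfp*, *Fcna*, *C6*, *C1qbp* and *Cd55* lie above 0 and those of *C1s1* and *Lrp1* below 0, before adjustment for the number of genes tested.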

How the data were processed

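Polyadenylated RNA of splenic monocytes was sequenced as single-end reads of 75 bp from 3 mice per genotype. According to the study's methods, the authors aligned the reads to GRCm38 with STAR 2.6.1a and a Gencode annotation, and deposited raw counts per gene, which STAR assigned from uniquely mapped reads. Reads in exons of more than 1 gene are left out by STAR as ambiguous (1.39% to 1.52% of reads). The strand setting of the deposited counts is not given in the sources used here. STAR's summary lines, 21.1% to 22.8% of reads, were left out of library sizes and tests. Symbols and exon models came from an earlier Gencode release than the study's, on the same build, so that lengths and shared bases may differ slightly. It held 55240 of 55421 gene identifiers.

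The filter was filterByExpr with a minimum count of 10. TMM factors and a quasi-likelihood fit (edgeR 4.0.16, R 4.3.3) gave p-values for 13849 genes, which were adjusted after Benjamini and Hochberg and compared with the study's threshold of 0.15. The design was genotype alone, over all 6 libraries. DESeq2 1.42.0, limma-voom (limma 3.58.1), other normalizations and filters, *Xist* as a covariate, a replicate block, removal of the trend with length (loess, span 0.5) and omission of each mouse were alternatives. The lengths of *Cfb* alone and the fit on *Xist*-low libraries were chosen after seeing the data. Likeness was the Pearson correlation of log2 CPM with a prior count of 2. The steps were tested on simulated data.

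The members, the 5 complement lists and the marker lists were chosen with earlier results of these data known. Genes named were the members, *Il4ra*, listed complement genes at an unadjusted p under 0.05 or among the 3 most abundant of their list, the genes most like the members (5 for C1q, 3 for each other), the 3 most abundant markers of a list given beside a result, *Xist* and Y-linked genes. *Spic*, *Siglec1*, *Treml4*, *Folr2*, *Ly6g*, *Camp*, *Retnlg*, *Gm20547* and *C2* and the complement genes not detected were named after their values were seen, as were the neighbours of the C1q cluster. At the lowest depth 1 count was 0.0378 CPM, and a gene at 3 counts or fewer was taken as not detected. Results for 1 listed complement gene are not reported here.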

Additional observations from a re-analysis of the deposited data

How the results depend on the processing

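The *C1qa*, *C1qb*, *C1qc*, *Cfp* and *C3ar1* estimates stayed above 0 in all 16 settings, and no setting put any of the 7 genes past the adjusted threshold of 0.15. The unadjusted p was under 0.05 in 16 settings for *C1qa* and *C1qb*, in 15 for *C1qc* and in 11 for *Cfp*. With each mouse left out in turn the log2 fold change was 0.39 to 0.78 for *C1qa*, 0.43 to 0.80 for *C1qb*, 0.40 to 0.80 for *C1qc*, 0.42 to 0.78 for *Cfp*, 0.03 to 0.63 for *C3ar1*, -0.26 to 0.37 for *C3* and -0.43 to 0.17 for *Cfb*. The *C3* estimate was -0.075 in the *Xist*-low libraries, and that of *Cfb* 0.0060 with limma-voom and 0.0084 with the *Xist* covariate, and the cause was not tested. DESeq2 called 80 genes where edgeR called 0. The number at an unadjusted p under 0.05 was 711 among *Xist*-low libraries and 627 to 1724 with a mouse left out, against 1120 with all mice. It was 2 to 4 for the members, with 2 without IL-4Rα+/+ replicate 2 (*C1qa* and *C1qb*). It was 3 to 5 for the other complement genes, against 6 with all mice, and 2 with the replicate block. Over the 16 alternatives the unadjusted p was under 0.05 in 15 for *Lrp1*, 14 for *Fcna*, 10 for *C6* and *Cd55* and 8 for *C1qbp*, and for *C1s1* in 8 of 15, since the stricter filter removed it. Same-numbered libraries did not deviate together (correlations of 0.18, -0.27 and -0.30). These correlations cannot show whether such mice shared a cage or litter, and the *Xist* level differed within the libraries numbered 1 and 3. With the block the log2 fold change was 0.59 for *C1qa*, 0.60 for *C1qb*, 0.59 for *C1qc* and 0.58 for *Cfp* (adjusted p = 0.812), and it put 0 genes past the threshold. Over the longest transcript the IL-4Rα+/+ levels were 645 TPM for *C1qa*, 656 for *C1qb*, 525 for *C1qc* and 399 for *Cfp*, and over unshared exon bases 13.4 TPM for *Cfb*. The values of *C3ar1* and *Cfb* rested on only 29 to 85 counts per library, and for *Cfb* reads in shared exon bases were not counted.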

Other observations

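Other cell markers also differed between the libraries, and their part in the complement values was not tested. Of 9 erythroid genes tested, 9 had a higher estimate in IL-4Rα-/- and 8 an unadjusted p under 0.05, and DESeq2 called 3 at an adjusted p under 0.15 where edgeR called 0, with summed CPM of 61.0 to 131 in IL-4Rα+/+ and 176 to 424 in IL-4Rα-/-. Of 10 genes of eosinophils, basophils and mast cells tested, 8 were higher at an unadjusted p under 0.05 and DESeq2 called 2, edgeR 0, with sums of 78.8 to 93.4 CPM in IL-4Rα+/+ and 135 to 217 CPM in IL-4Rα-/-. Pancreatic acinar enzymes summed to 10.5 to 51.2 CPM in IL-4Rα+/+ and to 19.6 to 342 CPM in IL-4Rα-/-, highest in replicate 2, and 1 of 11 was higher at an unadjusted p under 0.05. Dendritic cell genes (1 higher of 11), B and plasma cell genes (1 higher of 10), T and NK cell genes (0 of 10) and stromal and endothelial genes (0 of 7) had sums that overlapped between the genotypes, and 0 in each of these lists were lower at that p. Of all genes tested, 3.72% were higher and 4.37% lower at that p, and 51.5% had a higher estimate. DESeq2 called 0.571% of its genes.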
